A study of Bursaphelenchus xylophilus with 12 samples.

Results

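The genes described here are the 150 that varied least in the messenger RNA of adult pine wood nematodes (Bursaphelenchus xylophilus) over 12 h and 24 h in an insecticide or in its adjuvant. They were chosen by their own values. Of 18036 IDs in the deposited table, 17704 start with BXY, and 3747 of these had a mean over all 12 libraries of 50 to under 800 FPKM (fragments per kilobase, divided by the total of the library). The 150 with the smallest standard deviation (SD) of log2(FPKM + 1) over the 12 libraries are called the steady genes, and they are 4.00% of the 3747. Their small spread is therefore given by the choice and is no finding. The table pairs no ID with a name or a description, so the genes are given by ID and their functions are not analysed here.

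The worms, of strain NB-6, had been grown on the fungus Botrytis cinerea at 25 °C. Lots of 200 adults were kept in 0.1 mg/L of emamectin benzoate (EB) for 12 h (group EB12) or 24 h (group EB24), or in the adjuvant alone, n-butyl alcohol with octylphenol polyoxyethylene-10 (groups EC12 and EC24). The labels describe the adjuvant concentration as equal. They name the adjuvant groups ON in the treatment text, and the EC titles were matched to them by elimination. The titles of the 12 h libraries also carry a group number that the 24 h titles lack, and its meaning is not given. Time therefore cannot be told apart from any other difference between the 12 h and the 24 h libraries. Each group holds 3 libraries. Nothing in the labels ties them to separate cultures, and the p-values then reflect only how these libraries vary, which may be technical.

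Emamectin benzoate is an avermectin, a class of compounds that open glutamate-gated chloride channels in the nerves and muscles of invertebrates and so paralyse nematodes. Pine wood nematodes cause pine wilt disease, and trees are injected with avermectins against them. Genes of steady expression serve as reference genes in quantitative PCR, and as a check of scaling in RNA sequencing. FPKM divides by the library total, so that a strong increase of a few abundant transcripts lowers the FPKM of every other gene. Genes whose transcripts keep their absolute amount would then move together, up or down in FPKM, in the affected libraries. In bulk samples a lower level from fewer cells of a type and from less RNA per cell cannot be told apart.

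The FPKM values summed to between 824088 and 944595 per library, and read totals are unknown. The sums were lowest in EC12 (831384 ± 12335, SD, n = 3) and highest in EC24 (939269 ± 6264). Each library listed 12543 to 13358 IDs at 1 FPKM or more. The steady genes together held 21392 to 23306 FPKM, which was 2.34 to 2.81% of the sum of a library. Their share of the sum was 2.48 ± 0.05% in EB24, 2.38 ± 0.05% in EC24, 2.59 ± 0.11% in EB12 and 2.75 ± 0.06% in EC12. The share was lower in each of the 3 EC24 libraries than in any 12 h library, whereas the summed FPKM of the steady genes in EC24 (22057 to 22675) overlapped both 12 h groups and lay below EB24 (22761 to 23306).

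The steady genes lay at 53.6 to 781 FPKM, with a median of 112 FPKM against 91.0 FPKM in the other 3597 genes of the range. Their SD was 0.056 to 0.12 log2 units, with a median of 0.11, and that of the other genes 0.12 to 3.07, with a median of 0.31. The highest of the 12 libraries exceeded the lowest by 1.13 to 1.41 times in the steady genes (median 1.27) and by a median of 1.95 times in the others. The 4 group means of a steady gene lay within 10% of each other in 51 genes and within 20% in 147. Steady genes were found at every level of the range. They made up 3.04% of 2073 genes with a mean of 50 to under 100 FPKM, 5.15% of 1048 at 100 to under 200, 6.62% of 438 at 200 to under 400, and 2.13% of 188 at 400 to under 800.

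**Figure D1:**
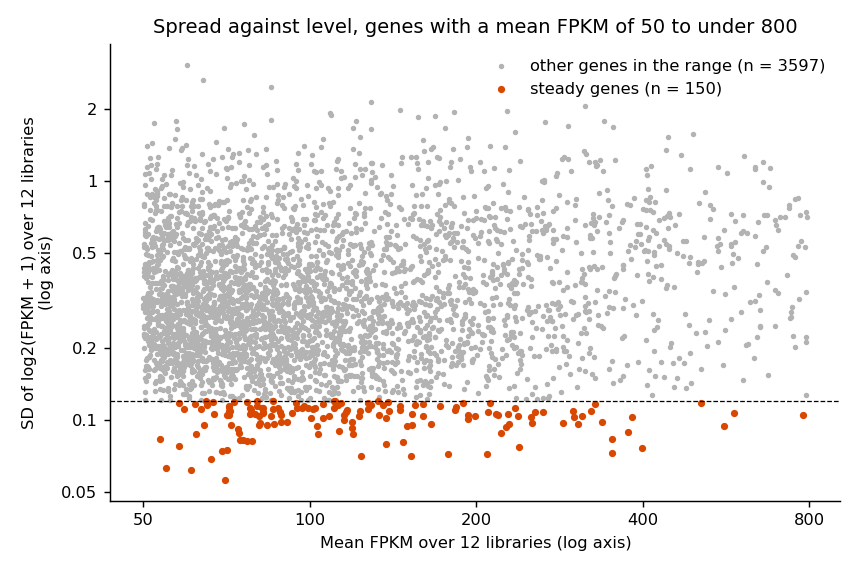
SD of log2(FPKM + 1) over 12 libraries (y axis, log scale) against the mean FPKM (x axis, log scale) for all 3747 BXY genes of the range, with the 150 steady genes coloured. The steady genes reach from 53.6 to 781 FPKM along the lower edge, which the choice itself sets at 0.12 log2 units.

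BXY_0265900 had the smallest SD, 0.056 log2 units. It stood at 71.5, 66.4 and 72.8 FPKM in EC12, at 68.7, 75.2 and 69.9 in EB12, at 71.8, 68.7 and 68.0 in EC24, and at 66.8, 70.5 and 73.7 in EB24. All 4 groups overlapped, and both the highest and the lowest library were 12 h ones. BXY_0085100 followed with an SD of 0.061, at 63.7, 63.9 and 64.4 FPKM in EC12, 57.4, 56.7 and 61.5 in EB12, 58.6, 62.5 and 59.5 in EC24, and 62.9, 61.4 and 59.5 in EB24. Here the 3 EC12 libraries lay above all 9 others. BXY_0525300, the third, stood at 56.9, 53.2 and 57.5 FPKM in EC12, 57.3, 51.5 and 50.4 in EB12, 54.3, 54.5 and 55.7 in EC24, and 57.5, 57.0 and 54.0 in EB24, and all groups overlapped.

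The next genes by SD differed more between groups. BXY_1166500 stood at 64.0, 70.1 and 63.9 FPKM in EC12, 66.9, 63.9 and 60.4 in EB12, 65.3, 65.3 and 67.4 in EC24, and 69.5, 71.9 and 67.3 in EB24, where EB24 lay above EB12. BXY_1595200 stood at 123, 124 and 121 FPKM in EC12, 121, 114 and 116 in EB12, 127, 124 and 124 in EC24, and 127, 135 and 133 in EB24. In this gene all 3 EB24 libraries lay above all 9 others, and all 3 EB12 libraries lay below all 9 others. The group means of BXY_1595200 differed by up to 0.17 log2 units, while its replicates differed by an SD of 0.031 at 12 h and 0.037 at 24 h.

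The rest of the first 10 had means of 69.5 to 352 FPKM. BXY_0565200 averaged 152 FPKM, with its lowest value in EC12 replicate 1 (142) and its highest in EC12 replicate 3 (169). BXY_0258500 averaged 178 FPKM, from 159 in EB12 replicate 1 to 194 in EB24 replicate 3. BXY_0700200 averaged 209 FPKM and ranged from 182 to 222 within EC12, while its 3 EC24 libraries stood at 211, 208 and 210. BXY_0356200 averaged 352 FPKM, from 332 in EB24 replicate 1 to 390 in EC12 replicate 1. BXY_0703500 averaged 69.5 FPKM, from 63.5 in EC24 replicate 1 to 79.4 in EC12 replicate 3. In each of these 5 genes a 12 h library gave the lowest or the highest value.

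**Figure D2:**
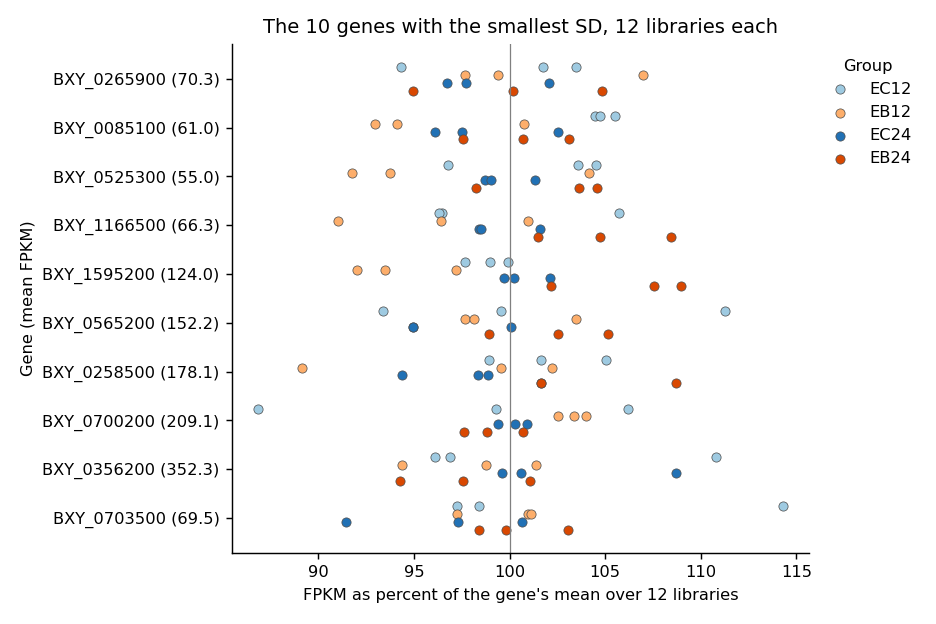
FPKM of the 10 genes with the smallest SD in each of the 12 libraries, as percent of the mean of the gene (x axis), 1 row per gene with its mean FPKM, 1 point per library coloured by group. The rows of BXY_0265900 mix all groups, while in the row of BXY_1595200 the EB24 points lie to the right and the EB12 points to the left.

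The upper limit of the choice falls in a continuum. The last 5 genes inside had an SD of 0.1197 to 0.1203 (BXY_1652800, BXY_1012800, BXY_0343800, BXY_0166800 and BXY_0133800) and the first 5 outside 0.1205 to 0.1211 (BXY_1748300, BXY_0065600, BXY_1395000, BXY_0612900 and BXY_1738700). BXY_0133800, the last inside, stood at 111, 108 and 124 FPKM in EC12, 97.9, 132 and 112 in EB12, 102, 105 and 104 in EC24, and 108, 111 and 116 in EB24. BXY_1748300, the first outside, stood at 110, 117 and 110 FPKM in EC12, 118, 131 and 140 in EB12, 115, 126 and 117 in EC24, and 130, 131 and 137 in EB24. The groups of the former overlapped at 12 h, while in the latter both EB groups lay above EC at the same time.

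At the top of the level scale, BXY_0972700 averaged 781 FPKM, with the lowest value in EB12 replicate 2 (654) and the highest in EB24 replicate 1 (853). BXY_0151700 averaged 586 FPKM, from 522 to 656 within EC12. BXY_0025800 averaged 561 FPKM, from 480 in EC12 replicate 1 to 597 in EB12 replicate 2. At the bottom, BXY_1124700 averaged 53.6 FPKM, BXY_0525300 averaged 55.0 and BXY_1114600 averaged 57.9. In all 3 abundant genes the lowest library was a 12 h one, as it was in these 3 low genes.

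Spread between replicates and spread between groups made up the SD of a steady gene. The median SD between replicates was 0.11 log2 units at 12 h and 0.054 at 24 h, and the 12 h value was the larger in 136 of the 150 genes. The other genes of the range had medians of 0.22 at 12 h and 0.076 at 24 h, so the 12 h medians were the larger in both sets. The 6 libraries at 12 h gave the highest value in 104 steady genes and the lowest in 98. Single libraries stood out: EC12 replicate 3 was the highest in 35 genes and EB12 replicate 2 in 30, and EB12 replicate 1 was the lowest in 41. The whole range deviated in the same direction in these libraries, with medians of 0.098, 0.12 and -0.075 log2 units. Such counts are not given for the other genes of the range, so they are not read as particular to the steady genes. EB24 replicate 3 was the lowest in 0 genes.

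BXY_0517500 had the largest ratio of the 12 h to the 24 h spread. It stood at 98.8, 130 and 114 FPKM in EC12 and at 104, 125 and 126 in EB12, against 117, 116 and 114 in EC24 and 118, 114 and 118 in EB24. BXY_0886800, the next, stood at 146, 176 and 145 FPKM in EC12 and at 165, 175 and 179 in EB12, against 161, 164 and 164 in EC24 and 172, 168 and 169 in EB24. Both genes varied 8.12 to 8.55 times as much between replicates at 12 h as at 24 h. BXY_1098800 and BXY_1652800 had the smallest ratios, 0.61 and 0.70, and the former stood at 71.7, 76.5 and 74.2 FPKM in EC12, 72.1, 73.1 and 74.0 in EB12, 71.7, 69.5 and 69.2 in EC24, and 66.5, 62.9 and 70.0 in EB24.

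Differences between group means made up a median of 45.1% of the variance of a steady gene, from 0.42 to 89.0%, against a median of 76.8% in the other genes. The share was over 50% in 59 of the 150. BXY_1729200 had the smallest, with 86.4, 106 and 104 FPKM in EC12, 86.7, 111 and 102 in EB12, 103, 99.2 and 94.0 in EC24, and 93.3, 101 and 104 in EB24. Its 4 group means lay between 98.6 and 99.9 FPKM although single libraries ranged from 86.4 to 111. BXY_0270800 and BXY_1135700 followed with shares of 2.73% and 3.8%. The largest shares were 89.0% in BXY_1419900, 84.4% in BXY_1101100 and 83.0% in BXY_1595200, so a gene can be steady over all libraries and still differ from group to group.

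Each gene was next set against its own mean over the 12 libraries. The median deviation of the 150 steady genes was -0.033, 0.026 and 0.064 log2 units in EC12 replicates 1 to 3, -0.081, 0.033 and -0.0064 in EB12, 0.0084, -0.034 and -0.039 in EC24, and 0.022, 0.019 and 0.049 in EB24. The group means were 0.030 ± 0.016 in EB24, -0.022 ± 0.026 in EC24, -0.018 ± 0.058 in EB12 and 0.019 ± 0.049 in EC12 (SD, n = 3). The groups overlapped at 12 h, and at 24 h all 3 EB24 libraries lay above all 3 EC24 libraries. The pooled SD between replicates was 0.041. The factors given by the mean deviation of the steady genes (log2 FPKM) ran from 0.942 in EB12 replicate 1 to 1.041 in EC12 replicate 3. The choice by SD on the deposited values holds these factors near 1, so their narrow range is no finding. The sums of FPKM ran from 0.926 to 1.061 of their mean and the median ratio factors from 0.933 to 1.085.

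The range as a whole deviated further than the steady genes in 9 of 12 libraries, which the choice by SD over these same libraries favours. Over all 3747 genes the median deviation was -0.044, -0.096 and -0.11 in EC24, 0.028, 0.048 and 0.065 in EB24, -0.011, 0.047 and 0.098 in EC12, and -0.075, 0.12 and -0.00039 in EB12. The largest gap between the steady genes and the whole range lay in EB12 replicate 2, where they stood at 0.033 and 0.12, and in EC24. The SD of the 150 deviations within a library was 0.071 to 0.082 at 24 h and 0.093 to 0.12 at 12 h. Along the main axis of the deviations, which held 25.7% of their sum of squares, EB12 replicate 1 and EC12 replicate 3 lay at the ends. On this axis all 3 EC24 libraries lay below 0 and all 3 EB24 libraries above 0, while EC12 and EB12 each held libraries of both signs. The second axis, with 18.7%, put all 6 libraries at 12 h below 0 and all 6 at 24 h above.

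**Figure D3:**
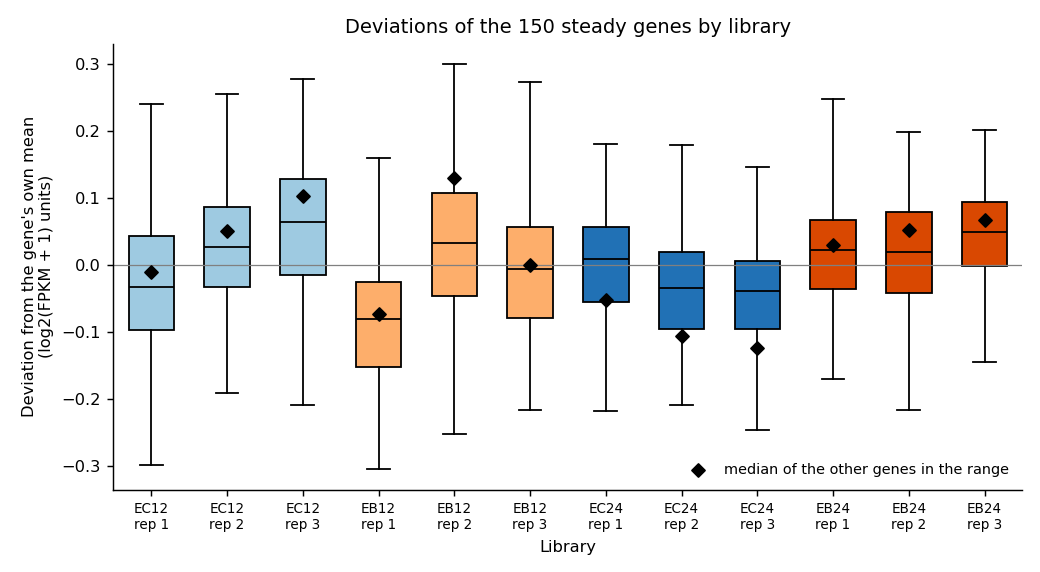
Deviation of each of the 150 steady genes from its own mean over 12 libraries (y axis, log2 units), by library and group (boxes are quartiles with the median, whiskers the lowest and highest gene), with diamonds for the median of the other 3597 genes of the range. The medians of the steady genes lie between -0.081 and 0.064, and the boxes at 24 h are narrower than those at 12 h.

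EB24 against EC24 addresses the effect of the agent after 24 h. The median difference of the 150 steady genes was 0.058 log2 units, with 108 of 150 higher in EB24 and a range of -0.26 to 0.27. The other genes of the range had a median of 0.16, and all 13768 tested genes 0.14. EB24 was higher in 72% of the steady genes, 66.7% of the others in the range and 64.2% of all tested genes. In a fit of all 12 libraries (limma, Benjamini-Hochberg adjusted p under 0.05), 14.5% of all tested genes were higher and 4.74% lower in EB24. Of the steady genes, 1 was higher and 1 lower by the same rule. The fit shares 1 estimate of the spread among all groups, although replicates varied more at 12 h than at 24 h. In the range as a whole, the median SD between replicates was 0.22 at 12 h and 0.075 at 24 h. More genes, steady ones included, passed when EB24 and EC24 were fitted alone, as given under other settings below. Here and in the other comparisons of all 12 libraries, the choice by SD over these same libraries limits the number of members that can pass, so such counts and their changes with left-out libraries are given as a description only. Without any 1 of the 6 libraries at 24 h, 0 of the 150 passed, whereas leaving out a 12 h library gave 1 (EB12 replicate 3) to 4 (EB12 replicates 1 and 2 and EC12 replicate 1).

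BXY_1419900 had the largest positive difference, with 78.3, 76.2 and 74.8 FPKM in EC24 and 90.1, 94.1 and 92.4 in EB24, a log2 difference of 0.27. BXY_1419600 had the most negative, with 261, 246 and 253 FPKM in EC24 and 209, 201 and 222 in EB24, a log2 difference of -0.26. EB24 and EC24 did not overlap in either gene, and no 12 h library of either gene lay within EB24. In BXY_1419900 both 12 h groups overlapped EC24, whereas in BXY_1419600 EC12 overlapped EC24 and EB12 lay between EB24 and EC24. BXY_0768900, at 309, 301 and 291 FPKM in EC24 and 356, 361 and 355 in EB24, and BXY_1526300, at 122, 126 and 124 in EC24 and 105, 110 and 108 in EB24, were next in each direction.

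EB12 against EC12 addresses the same after 12 h. The median difference of the steady genes was -0.047 log2 units, with 53 of 150 higher in EB12 and a range of -0.23 to 0.17, against -0.026 in the other genes of the range. EB12 was higher in 35.3% of the steady genes, 44.4% of the others in the range and 42.2% of all tested genes. Of all tested genes 0.0726% were higher and 0.0436% lower in EB12 (limma, adjusted p under 0.05). None of the steady genes (0 of 150) passed, and 3 of 150 had an unadjusted limma p under 0.05, against 1673 of all 13768 tested genes and 460 of the 3747 in the range. The choice by SD limits these counts of members too. The fit shares 1 estimate of the spread among all groups, which tends to understate the spread of the 12 h replicates. In the range as a whole, the median SD between replicates was 0.22 at 12 h and 0.075 at 24 h. The limma p-values of this comparison therefore tend to be too small. Fitted alone, the 12 h groups gave 0 calls, as given under other settings below. BXY_1741500 was the most negative, at 110, 96.7 and 101 FPKM in EC12 and at 87.8, 86.7 and 86.9 in EB12, and BXY_1601700 the next, at 93.3, 95.5 and 105 in EC12 and at 78.9, 86.6 and 85.7 in EB12. The groups of both genes did not overlap. BXY_0511400 and BXY_0886800 had the largest positive differences, 0.17 and 0.16, and the former stood at 214, 271 and 259 FPKM in EC12 and at 276, 269 and 286 in EB12, with EC12 replicate 1 apart from the rest.

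EC24 against EC12 compares the controls at 24 h with those at 12 h. The median difference of the steady genes was -0.042 log2 units, with 56 of 150 higher in EC24 and a range of -0.28 to 0.19, against -0.14 in the other genes of the range and 0.044 in all tested genes. EC24 was higher in 37.3% of the steady genes, 43.5% of the others in the range and 52.6% of all tested genes. Of all tested genes, 24.7% were higher and 25.9% lower in EC24 (limma, adjusted p under 0.05). Of the steady genes, within the limit set by their choice, 0 were higher and 5 lower: BXY_0767300, BXY_1012800, BXY_1652800, BXY_0219200 and BXY_1528100. Left-out libraries moved their count, to 10 when EC12 replicate 1 was absent, to 8 for EB12 replicate 2, to 1 for EC12 replicate 3, EB12 replicate 3 or any 1 EB24 library, and to 0 for EC24 replicate 3. It was 3 when EC12 replicate 2 was absent and 2 for either of the other EC24 libraries. BXY_0767300 stood at 206, 206 and 212 FPKM in EC12 and at 178, 170 and 166 in EC24, and BXY_1012800 at 128, 151 and 150 in EC12 and 123, 121 and 115 in EC24. On the other side BXY_0665500 stood at 129, 137 and 145 FPKM in EC12 and at 158, 155 and 155 in EC24. None of these 3 genes overlapped between the groups.

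EB24 against EB12 compares the worms in EB at 24 h with those at 12 h. The median difference of the steady genes was 0.036 log2 units, with 95 of 150 higher in EB24 and a range of -0.19 to 0.24, against 0.030 in the other genes of the range and 0.15 in all tested genes. EB24 was higher in 63.3% of the steady genes, 52.4% of the others in the range and 59.6% of all tested genes. Of all tested genes, 30.3% were higher and 13.1% lower in EB24 (limma, adjusted p under 0.05). Of the steady genes, again within the limit set by their choice, 2 were higher, BXY_0942600 and BXY_1101100, and 0 lower. Their count was 7 when EB12 replicate 2 was left out, 4 for EC12 replicate 1, 2 for either of the other EC12 libraries and 0 for any 1 of the remaining 8 libraries. BXY_0942600 stood at 88.2, 97.4 and 88.8 FPKM in EB12 and 103, 108 and 112 in EB24. BXY_1101100 stood at 193, 210 and 197 FPKM in EB12 and 231, 224 and 242 in EB24, with EC12 at 184, 202 and 197 and EC24 at 219, 221 and 218, so that both 24 h groups lay above both 12 h groups. BXY_1123800, with 113, 137 and 131 FPKM in EB12 and 142, 147 and 153 in EB24, and at the other end BXY_0440300, with 218, 236 and 225 in EB12 and 203, 193 and 200 in EB24, did not overlap either. BXY_0666400, the second at that end, had EB12 replicate 2 (158) apart from 127 and 132 in the other EB12 libraries and 122, 121 and 122 in EB24.

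The 4 comparisons share groups, so their values are given side by side and not counted as separate evidence. As a check of the scaling, the medians of the steady genes as deposited were within 0.06 of 0 in all 4 comparisons, which the choice by SD on these values favours. On other scalings the same genes moved. After median ratio scaling their medians were -0.032 for EB24 against EC24, 0.017 for EB12 against EC12, -0.075 for EC24 against EC12 and -0.15 for EB24 against EB12. After quantile normalization they were -0.025, -0.051, -0.018 and -0.017 in the same order. With all libraries set to equal sums of FPKM they were 0.081, -0.10, -0.22 and -0.057. Over all 13768 tested genes the medians were 0.14, -0.046, 0.044 and 0.15 on the deposited scale, 0.061, 0.012, 0.017 and -0.018 after median ratio scaling, 0.034, -0.023, -0.019 and -0.015 on quantile normalized values, and 0.16, -0.099, -0.11 and 0.066 with equal sums. The median of all tested genes thus shifted by more than 0.1 for EB24 against EC24 with quantile normalization, for EC24 against EC12 with equal sums, and for EB24 against EB12 with median ratio scaling and quantile normalization. On the deposited scale the steady genes lay lower than all tested genes for EB24 against EC24, EB24 against EB12 and EC24 against EC12. Median ratio scaling and equal sums divide each library by a factor common to all its genes, which moves both sets almost alike. These scalings kept that order, which is therefore no separate evidence. Quantile normalization could change the order. There the steady genes lay lower for EB24 against EC24 (-0.025 against 0.034). The sets were nearly level for EB24 against EB12 (-0.017 against -0.015) and for EC24 against EC12 (-0.018 against -0.019). The direction from 0 for EB24 against EC24 flipped with both median ratio scaling and quantile normalization, that for EB12 against EC12 flipped with median ratio scaling, and that for EB24 against EB12 flipped with all 3.

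All genes were then divided by the factors of the steady genes and tested again (limma, adjusted p under 0.05). These factors come from genes chosen to be flat on the deposited values, so they lie near 1 by construction and the calls are held close to the deposited ones. For EB24 against EC24 the calls were 1637 higher and 721 lower (69.4% higher), against 1998 and 653 (75.4% higher) on the deposited values. Median ratio scaling gave 969 and 779 (55.4%), quantile normalization 1337 and 1064 (55.7%) and equal sums 2151 and 595 (78.3%). Higher calls outnumbered lower ones in all of these. For EC24 against EC12 the steady-gene factors gave 3540 higher and 3402 lower (51.0% higher), against 48.8% on the deposited values, 47.4% with median ratios, 45.8% with quantiles and 36.4% with equal sums. The side with more calls therefore flipped for this comparison. For EB24 against EB12 they gave 3853 and 2157 (64.1% higher), against 69.7% on the deposited values, 51.8% with median ratios, 50.7% with quantiles and 60.1% with equal sums. For EB12 against EC12 they gave 9 and 6 calls, against 10 and 6 as deposited.

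**Figure D4:**
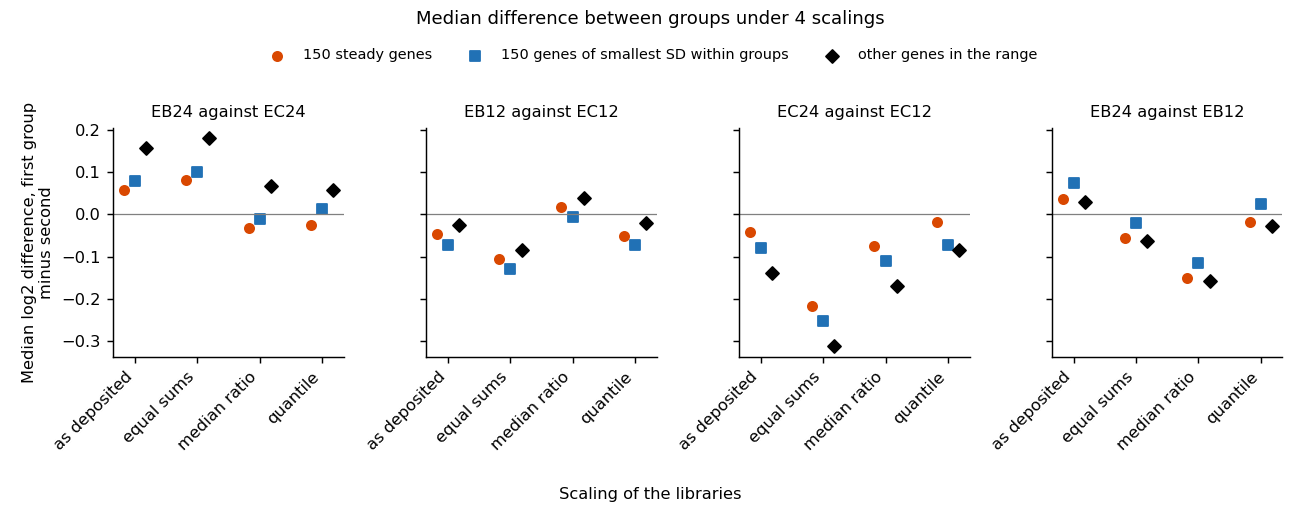
Median log2 difference (y axis, log2 units) of the 150 steady genes (circles), the 150 genes chosen by their SD within groups (squares) and the other genes of the range (diamonds), in the 4 comparisons, with the FPKM as deposited and after 3 other scalings. The steady genes lie within 0.06 of 0 as deposited, and at -0.22 for EC24 against EC12 with equal sums.

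The choice itself depends on the scaling. By the same rule, 82 of the 150 (54.7%) were chosen again on median ratio scaled values, 95 (63.3%) on quantile normalized values and 77 (51.3%) with equal sums, the lists being of equal size. On its own scale, the list of the median ratio scaling had medians of -0.0044, -0.0067, -0.025 and -0.021 in the 4 comparisons. That list, read on the deposited scale, had medians of 0.086 for EB24 against EC24, -0.072 for EB12 against EC12, 0.0071 for EC24 against EC12 and 0.17 for EB24 against EB12. The list of the quantile normalization had medians of -0.024 to 0.019 on its own scale, and that of equal sums -0.079 to 0.058. A total of 45 genes were chosen under all 4 scalings, BXY_0265900, BXY_0085100 and BXY_0525300 among them.

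A second list ignored differences between the group means. It was chosen as the 150 genes of the range with the smallest SD within groups. It shares 45 genes (30.0% of either list) with the steady genes. Its medians on the deposited scale were 0.078 for EB24 against EC24, -0.072 for EB12 against EC12, -0.079 for EC24 against EC12 and 0.073 for EB24 against EB12. Each lay farther from 0 than in the steady genes, whose choice by the SD over all libraries favours small differences between groups. After median ratio scaling the medians of the second list were -0.012, -0.0072, -0.11 and -0.11, and with equal sums 0.10, -0.13, -0.25 and -0.020. Their direction for EB24 against EC24 flipped with median ratio scaling, and that for EB24 against EB12 flipped with median ratio scaling and equal sums. A total of 18 genes were chosen by this rule and under all 4 scalings.

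An independent reading of steadiness came from genes chosen in 6 libraries by the same rule and measured in the other 6. The 150 genes with the smallest SD in the 12 h libraries had a median SD of 0.085 there and 0.12 in the 24 h libraries, against 0.18 at 24 h for all genes of their range. Those chosen at 24 h had medians of 0.044 there and 0.17 at 12 h, against 0.22 for their range. Those chosen in the EB libraries had medians of 0.066 there and 0.20 in the EC libraries, against 0.32, and those chosen in the EC libraries 0.077 there and 0.15 in the EB libraries, against 0.24. Each list was thus steadier in unused libraries than its range, and less steady than where it was chosen. The share of the list still under its own limit of SD was 44.0% (range 19.97%), 0.67% (0.19%), 4.67% (2.51%) and 17.3% (6.36%) in the same order.

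The lists shared a minority of their genes. Those of 12 h and 24 h had 11 in common (7.33% of either), and those of EB and EC 13 (8.67% of either). Each list was drawn from a range of 3666 to 3788 genes, and 150 genes are 4.00% of the range over all 12 libraries. Lists drawn at random would share about such a percentage, and the difference was not tested. The steady genes held 51 of the 12 h list, 35 of the 24 h list, 40 of the EB list and 70 of the EC list, and 124 of the 150 were in at least 1 of them. The ranking of the steady genes used the libraries of every list, which favours this overlap. Each library also entered more than 1 of the 4 choices, so a gene in several lists was not chosen independently each time. The 3 genes in all 4 lists were BXY_0085100, BXY_0525300 and BXY_0180700. BXY_0180700 stood at 82.8, 77.4 and 77.8 FPKM in EC12, 83.1, 82.2 and 79.9 in EB12, 73.7, 74.8 and 69.2 in EC24, and 76.4, 72.0 and 75.3 in EB24. Each of its 12 h libraries lay above each of its 24 h libraries, and the agents overlapped at both times.

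Genes steady at 12 h passed less often between EB24 and EC24 than their range, a difference that was not tested. In the 24 h libraries fitted alone, 77 of the 150 differed between EB24 and EC24 (limma adjusted p under 0.05), 55 higher and 22 lower, against 68.2% of the 3748 tested genes in their range (49.7% higher and 18.5% lower). That is 51.3% of the list. The median difference was 0.099 log2 units in the list and 0.17 in the range, and the median size of the difference 0.16 and 0.28. The split leaned to higher as deposited and was even, 38 and 37, after median ratio scaling. Chosen after its values were seen, BXY_0363400 is the 1 gene of the list with a difference over 2-fold. It stood at 101, 90.6 and 84.3 FPKM in EC12 and at 89.2, 86.5 and 96.2 in EB12, at 160, 162 and 159 in EC24, and at 74.98, 75.95 and 73.56 in EB24 (log2 difference -1.09 ± 0.05, SE, limma adjusted p = 3.39e-07). The 12 h groups overlapped and lay between the 24 h groups.

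Genes steady at 24 h gave 0 calls of 150 between EB12 and EC12 in the 12 h libraries alone, against 0% higher, 0% lower and 0% in either direction of the 3674 genes in their range (limma, adjusted p under 0.05). At an unadjusted limma p under 0.05 there were 9 in the list and 156 in the range. The median difference was -0.075 in the list and -0.026 in the range, and the median size 0.12 and 0.13. Chosen after its values were seen, BXY_0003200 had the smallest limma p of the list. It stood at 54.5, 51.9 and 54.6 FPKM in EC24 and at 53.2, 53.9 and 54.7 in EB24, but at 41.1, 34.6 and 38.0 in EC12 and at 26.4, 25.2 and 17.7 in EB12 (log2 difference of EB12 less EC12 -0.71 ± 0.20, SE, limma adjusted p = 0.981). The 12 h groups did not overlap and both lay below 24 h, and at the spread of the 12 h libraries the difference did not pass the adjusted test.

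Genes steady in the EB libraries differed mostly in 1 direction in the controls. From EC12 to EC24, 69 of the 150 passed in the EC libraries alone (limma adjusted p under 0.05), 3 higher and 66 lower, against 60% of the 3788 tested genes in their range (22.9% higher and 37.1% lower). The median difference was -0.28 in the list and -0.14 in the range, and the median size 0.29 and 0.49. The split was 3 and 57 after median ratio scaling, 3 and 61 on quantile normalized values, and 1 and 103 with equal sums. Without EC24 replicate 2 or 3 the count was 44 and 41, and without any other EC library 49 to 95. As deposited, the list passed less often than its range as a whole. In the lower direction 44.0% of the list passed, near the 37.1% of the range. The shares of the range under the other scalings and with left-out libraries are not given here, so these list counts only describe the list. The difference between the list and the range was not tested.

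The genes with the largest differences in that list are named after their values were seen. BXY_0386300 stood at 133, 149 and 141 FPKM in EB12 and 133, 133 and 139 in EB24, but at 121, 169 and 196 in EC12 and 58.2, 60.0 and 52.7 in EC24 (log2 difference of EC24 less EC12 -1.47 ± 0.17, SE, limma adjusted p = 0.000666). BXY_1134800 stood at 370, 353 and 356 FPKM in EB12 and 369, 355 and 387 in EB24, at 304, 406 and 492 in EC12, and at 138, 167 and 163 in EC24 (-1.33 ± 0.18, limma adjusted p = 0.000994). In both genes the EC24 libraries lay below all the others, and the EC12 libraries spread to both sides of the EB values. In the other direction BXY_0954100 stood at 295, 311 and 281 FPKM in EC12 and at 418, 449 and 444 in EC24 (0.56 ± 0.09, limma adjusted p = 0.00238), with 290 to 324 in EB12 and 316 to 332 in EB24.

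Genes steady in the EC libraries passed less often with EB over time than their range, a difference that was not tested. From EB12 to EB24, 18 of the 150 passed in the EB libraries alone (limma adjusted p under 0.05), 16 higher and 2 lower, against 37.1% of the 3666 tested genes in their range (23% higher and 14.1% lower). The median difference was 0.091 in the list and 0.030 in the range, and the median size 0.15 and 0.29. The split flipped to 3 higher and 16 lower after median ratio scaling, and was 10 and 6 on quantile normalized values and 5 and 4 with equal sums. The count ranged from 2 without EB24 replicate 2 to 44 without EB12 replicate 2. It was 28 without EB12 replicate 1, 10 without EB12 replicate 3, 5 without EB24 replicate 1 and 3 without EB24 replicate 3. BXY_0016100, the largest and named after its values were seen, stood at 82.4, 95.2 and 92.6 FPKM in EC12, 82.9, 86.3 and 87.1 in EC24, 106, 64.9 and 63.7 in EB12, and 133, 161 and 148 in EB24 (log2 difference 0.94 ± 0.20, SE, limma adjusted p = 0.0112). Its EB24 libraries lay above all the others, and EB12 replicate 1 lay apart from the other EB12 libraries.

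**Figure D5:**
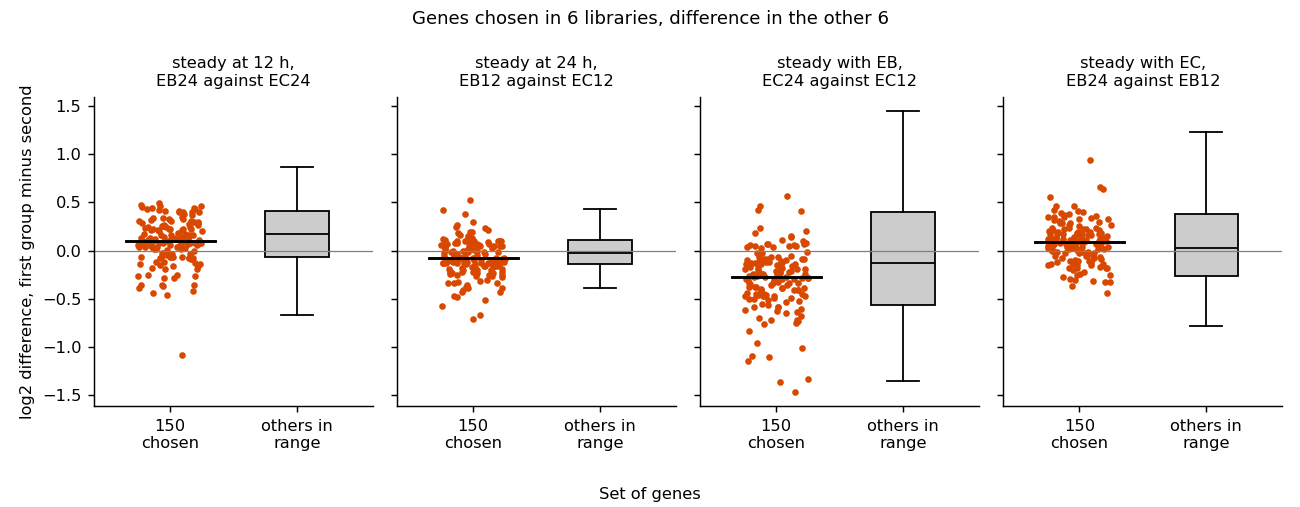
Log2 difference (y axis) in the 6 libraries that were not used for the choice, for the 150 genes chosen in the other 6 (points, with a bar at the median) and for the other genes of the same range (grey box with quartiles, whiskers at the 5th and 95th percentile). The list chosen with EB lies mostly below 0 for EC24 against EC12, with a median of -0.28.

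Last, the choice was repeated without each library in turn and the list was read in the library left out. Each repeat shared 114 to 143 genes with the 150 steady genes. At 24 h the median of the list in the left-out library, less the mean of the other 11, was 0.016, -0.044 and -0.047 log2 units for EC24 and 0.026, 0.030 and 0.057 for EB24, and the SD over the list was 0.085 to 0.12. At 12 h the medians were -0.054, 0.032 and 0.11 for EC12 and -0.15, 0.085 and -0.011 for EB12, with an SD of 0.12 to 0.20. EB12 replicate 1 and EC12 replicate 3 lay farthest from 0. For the whole range the medians were -0.057, -0.11 and -0.13 in EC24 and 0.027, 0.047 and 0.067 in EB24. They were -0.018, 0.044 and 0.096 in EC12 and -0.087, 0.12 and -0.0056 in EB12. The list thus lay nearer to 0 than its range in all 3 libraries of EC24 and of EB24. It also lay nearer to 0 in replicate 2 of EC12 and of EB12. The list lay farther from 0 than its range in EB12 replicates 1 and 3 and in EC12 replicates 1 and 3.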

How the data were processed

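The values analysed are the FPKM that the authors deposited for 12 libraries. Per the submitters' processing notes TopHat2 2.1.1 was used. The build, annotation, counter, strand setting and filters were not given in the sources used here, and reads from overlapping genes or near-identical copies may be mixed. No pair of libraries was identical, and all value columns matched a library title.

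Members were ranked by the SD of log2(FPKM + 1). For tests, IDs at 1 FPKM or more in 3 or more libraries (13768, all 150 members among them) were fitted with limma 3.58.1 in R 4.3.3, with 1 mean per group, eBayes with trend, two-sided contrasts and Benjamini-Hochberg adjustment at 0.05 over all tested genes. Fold changes on this scale understate those of low genes. Tests of lists chosen in 6 libraries used the other 6 alone. Steady-gene factors are 2 to the power of the mean deviation of log2 FPKM of the members. The code was tested on simulated data.

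Members, lists and tests were chosen with earlier results of these data known, and equal sums were chosen after seeing the data. Genes were named by rank of SD (the first 10 and 5 on each side of the limit), by the extremes of each comparison, of level, of the between-group share and of the ratio of replicate spreads. Since the members were chosen on all 12 libraries, counts of members past the test only describe the list, and no p of a member is read as a result. Python 3.11.15 was used for the tables and figures.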

Additional observations from a re-analysis of the deposited data

How the results depend on the processing

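Of 316 values under other settings, 205 stayed within 1.5 times the count or within the replicate spread of the value as reported, and 111 moved. The 205 include settings with 0 calls both there and as reported. These are 24 of the steady genes and 13 of the genes steady at 24 h, for EB12 against EC12. The replicate spread, 0.041, is about as large as the reported medians, so a median near 0 can count as unmoved. All-gene calls for EB24 against EC24 were 1748 after median ratio scaling and 7220 in those groups alone, and 971 to 3467 with 1 library left out. For EB12 against EC12 they were 6 with no filter, 0 in those groups alone and 5 with the replicate block, and 5 to 311 with 1 library left out. Calls among the 150 steady genes also moved. As percent of the list, for EB24 against EC24, EC24 against EC12 and EB24 against EB12 in turn, they were 4, 11.3 and 12.7 with no filter, 0.667, 2 and 12 after median ratio scaling, 4, 10.7 and 2.67 on quantile normalized values, and 2, 42 and 6 with equal sums. They were 18, 0.667 and 0 in the compared groups alone, 0, 0.667 and 0 both with the replicate block and with no trend, and 3, 6.33 and 3.67 among 300 genes. Genes chosen after median ratio scaling gave 0, 2 and 0, on quantile normalized values 0, 0.667 and 0, and by the SD within groups 31.3, 56 and 40, a share that this choice raises since the test divides by that spread (all tested genes 19.3, 50.5 and 43.4). With 1 library left out they were 0 to 2.67, 0 to 6.67 and 0 to 4.67.

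The median log2 difference for EB24 against EC24 moved to -0.032 after median ratio scaling, -0.025 on quantile normalized values and -0.0044 in genes chosen after median ratio scaling. For EB12 against EC12 it moved to 0.017 after median ratio scaling and -0.10 with equal sums, and for EC24 against EC12 to -0.22 with equal sums. For EB24 against EB12 it moved to -0.15 after median ratio scaling, -0.017 on quantile normalized values, -0.057 with equal sums and -0.021 in genes chosen after median ratio scaling, and it was -0.0019 to 0.079 with 1 library left out. Genes steady with EB gave 69.3% called with equal sums and 27.3 to 63.3% with 1 library left out. Genes steady with EC gave 6% with equal sums and with the replicate block, 6.67% with no trend and 1.33 to 29.3% with 1 library left out. The cause of these moves was not tested.

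Same-numbered libraries had correlations of deviations of -0.052 to 0.34 between EB12 and EC12 and -0.015 to 0.041 between EB24 and EC24, and 5 of 12 correlated best with a library of their own number, so the numbers were not taken as pairs. With the replicate block, all-gene calls were 2485, 6886 and 5917 for EB24 against EC24, EC24 against EC12 and EB24 against EB12. Read depth is unknown, so no counting interval is given.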

Other observations

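Steady genes also existed outside the chosen range of levels. Of 131 BXY genes with a mean of 800 FPKM or more, 5 (3.82%) had an SD at or under the limit of the 150 steady genes: BXY_1657400, BXY_0575300, BXY_1754600, BXY_1278900 and BXY_1104300, at means of 1019 to 2372 FPKM. BXY_1657400, the steadiest of them, stood at 1573, 1760 and 1530 FPKM in EC12, 1526, 1661 and 1740 in EB12, 1784, 1671 and 1649 in EC24, and 1574, 1568 and 1567 in EB24. The 3 EB24 libraries lay close together and below all 3 EC24 libraries. In 4 of the 5 genes the highest library was EB12 replicate 3. Of 4974 BXY genes with a mean of 10 to under 50 FPKM, 39 (0.784%) were at or under the limit, with BXY_0981800 the steadiest at 21.5 to 26.5 FPKM. Of the 14 loci with an XLOC ID in the chosen range of levels, 0 were under the limit, and the smallest SD was 0.18 in XLOC_009668, at a mean of 435 FPKM.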
